A study of Mus musculus with 29 samples.

Results

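The genes described here are 10 genes of Müller glia (Clu, Glul, Apoe, Rlbp1, Aqp4, Slc1a3, Vim, Dkk3, Gpr37 and Car14), measured in neurons that had been sorted from adult mouse retina. They were chosen by name, as the rows of the RNA-seq table whose gene column equals a listed symbol, and all 10 were found among its 24062 genes. Müller glia are the radial glial cells that span the retina. They take up glutamate and convert it to glutamine, buffer water and ions, hand retinoids back to photoreceptors and secrete lipid carriers and chaperones. In bulk libraries fewer cells of a type and less RNA per cell cannot be told apart.

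RNA-seq was done on 3 libraries from each of 5 populations. All bipolar cells (pan-BC) came from Otx2-GFP+/- mice at postnatal day 44 to 47, in which GFP sits at the Otx2 locus and labels bipolar cells strongly and photoreceptors weakly. ON bipolar cells (ON-BC) and OFF bipolar cells (OFF-BC) came from Otx2-GFP+/-; Grm6-YFP+/+ mice at postnatal day 42 to 48, in which a Grm6 promoter drives YFP in ON cells, and OFF-BC were sorted a second time. Rods came from Nrl-eGFP mice and blue cones from Nrl-eGFP;NrlKO mice, both at postnatal day 56. The Nrl-/- photoreceptors, which turn cone-like when rods cannot form, stand in for native blue cones. ATAC-seq was done on 2 libraries each of pan-BC, ON-BC, OFF-BC, rods, Nrl-/- blue cones and green cones (Opn1mw-GFP mice), and peaks of 2 more libraries from double-sorted green cones were also used. Ages for ATAC-seq were postnatal day 43 and 44 for pan-BC, 42 and 46 for both ON-BC and OFF-BC, and 56 for all photoreceptors. By the labels, the ATAC-seq pan-BC mice also carried Grm6-YFP+/+. ON-BC and OFF-BC libraries with the same number had the same genotype and age in both assays, and whether they came from the same mice is not stated. The laboratory had made the photoreceptor libraries for a previous study, so cell class, study and age cannot be told apart in any comparison of bipolar cells with photoreceptors.

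RNA-seq libraries held 12329548 to 26266746 counted reads (median 15569580) and ATAC-seq libraries 4176776 to 12345845 (median 6648830). The summed normalized count of 8 bipolar genes was 89785 to 228079 in bipolar libraries and 8325 to 37886 in photoreceptor libraries. OFF-BC 3 stood apart from the other OFF-BC libraries, with a cone marker sum of 106866 against 31749 and 36802. Its rod marker sum was 17906 against 3618 and 4253. Rod marker sums were higher still in every pan-BC library (33444 to 42037) and every ON-BC library (20348 to 25582). Cone marker sums were 45655 to 72119 in pan-BC and 5679 to 6462 in ON-BC. Values are normalized counts, which are reads divided by 1 size factor per library. "Called" means an adjusted p below 0.05 by limma, tested against a log2 fold change of 1 on log2(normalized count + 1). A gene listed as not called is thus not shown to be equal between populations.

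Chromatin around these genes was measured in regions of the deposited table, and sequences are shown for some of the places where it differed. Gpr37, an orphan G protein-coupled receptor on chromosome 6 (chr6:25668523-25689980, minus strand, GRCm38), was called in both assays. Car14, a membrane-bound carbonic anhydrase on chromosome 3, had a promoter region less accessible in pan-BC than in rods. The 250 bases upstream of a start of each are printed from RefSeq (GRCm38.p6), on the gene's own strand. They were searched on both strands for TAATCC, the K50 homeodomain core read by factors such as OTX2 and CRX, for TAATTA, a Q50 homeodomain core, for the E-box CANNTG and for the SOX core AACAAT. Capitals mark a match.
Gpr37 promoter, chr6:25689981-25690230: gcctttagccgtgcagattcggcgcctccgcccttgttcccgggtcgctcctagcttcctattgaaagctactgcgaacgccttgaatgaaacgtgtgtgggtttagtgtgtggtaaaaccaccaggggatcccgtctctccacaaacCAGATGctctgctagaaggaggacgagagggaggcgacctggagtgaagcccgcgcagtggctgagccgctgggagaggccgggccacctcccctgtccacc
Car14 promoter, chr3:95904686-95904935: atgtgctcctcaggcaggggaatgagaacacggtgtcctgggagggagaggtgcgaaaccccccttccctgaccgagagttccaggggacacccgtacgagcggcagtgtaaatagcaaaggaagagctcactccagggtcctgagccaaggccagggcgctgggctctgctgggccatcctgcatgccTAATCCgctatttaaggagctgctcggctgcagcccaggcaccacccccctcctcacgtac
The Gpr37 window held 1 E-box and no match to the other motifs, and the Car14 window held 1 TAATCC. Of 32851 promoter windows in the RefSeq set, 66.2% held CANNTG and 6.25% TAATCC, while 4.84% held TAATTA and 9.42% AACAAT. Windows were found for 7 of the 10 genes. Promoter regions of Vim and Apoe were also called between pan-BC and rods, and their windows are not printed. The Vim window held no match to these motifs. An Apoe window held a TAATCC match, while the Apoe promoter region was higher in pan-BC, opposite to Car14. A match is a run of letters and not a measured binding site.

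Distal regions assigned to Gpr37 as the nearest gene are shown for the same reason, since these differed between ON-BC and OFF-BC. They were singled out after their values were seen. All 3 that were called higher in ON-BC are shown. They lie between genes, downstream of Gpr37, and are printed on the plus strand of GRCm38 at the coordinates of the deposited table, which does not say whether its starts count from 0 or 1. Capitals mark TAATCC or its reverse complement GGATTA, and CANNTG.
Gpr37 region 185475 bases from its start, chr6:25504405-25504605: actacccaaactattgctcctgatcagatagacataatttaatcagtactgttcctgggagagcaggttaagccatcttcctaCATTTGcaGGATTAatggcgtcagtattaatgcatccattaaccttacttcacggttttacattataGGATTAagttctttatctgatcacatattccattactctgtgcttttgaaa
Gpr37 region 338662 bases from its start, chr6:25351218-25351418: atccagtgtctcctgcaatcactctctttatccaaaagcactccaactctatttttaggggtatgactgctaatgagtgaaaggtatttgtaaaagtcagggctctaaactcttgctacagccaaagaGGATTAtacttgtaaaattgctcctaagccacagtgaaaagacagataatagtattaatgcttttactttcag
Gpr37 region 152816 bases from its start, chr6:25537064-25537264: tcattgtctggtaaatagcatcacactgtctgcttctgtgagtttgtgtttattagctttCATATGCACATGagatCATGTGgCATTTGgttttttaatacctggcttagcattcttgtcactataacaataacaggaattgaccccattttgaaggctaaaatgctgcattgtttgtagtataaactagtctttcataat
The region at 185475 bases held 2 TAATCC matches and 1 E-box, and that at 338662 bases held 1 TAATCC and no E-box. The nearest, at 152816 bases, held no TAATCC and 4 E-boxes. Among all 110715 regions of the table, 21.8% held TAATCC and 68.9% CANNTG.

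All 10 genes were detected in every RNA-seq library and passed the filter on low counts, which 14024 genes passed. Together they took 0.0504 to 0.0588% of counted reads of pan-BC. The share was 0.0459 to 0.0512% for ON-BC and 0.0554 to 0.0792% for OFF-BC. It was lowest for rods (0.0123 to 0.0186%) and highest for Nrl-/- blue cones (0.0766 to 0.0900%). Clu made up most of it in every population except rods. Per kilobase of exon, the mean level of Clu was 7227 normalized counts in Nrl-/- blue cones and 3322 in pan-BC, while Aqp4 had 5.57 and 6.18.

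Clusterin, the secreted chaperone encoded by Clu (chr14:65968483-65981548, plus strand), had the highest mean level of the 10 genes per kilobase of exon in every population. Its normalized counts were 6229, 6572 and 5249 for pan-BC libraries, 5120, 4889 and 6129 for ON-BC, and 10399, 6346 and 7078 for OFF-BC. Nrl-/- blue cones had 11761, 14577 and 12924, and rods 750.0, 1424 and 1267. Every rod library was below every other library, and every blue cone library was above every other. Between rods and Nrl-/- blue cones the means differed 11.4-fold (log2 fold change -3.56, SE 0.21, adjusted p = 2.66e-08), and pan-BC exceeded rods 5.25-fold (log2 fold change 2.44, SE 0.21, adjusted p = 8.5e-06). Pan-BC had lower counts than blue cones in all libraries, with a log2 difference of -1.12 that was not called (95% interval -1.57 to -0.68, adjusted p = 0.593).

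Glutamine synthetase, encoded by Glul (chr1:153899929-153909723, plus strand), makes glutamine from the glutamate that glia take up. It had 1088, 950.3 and 915 normalized counts in pan-BC. ON-BC had 646, 842 and 698, and OFF-BC 1274, 1024 and 1022. Rods had 342, 435 and 414, and Nrl-/- blue cones 272, 363 and 291. Every bipolar library was above every photoreceptor library. The 3.19-fold excess of pan-BC over blue cones was called (log2 fold change 1.68, SE 0.15, adjusted p = 5.78e-04), and the 2.48-fold excess over rods was just outside the threshold (log2 fold change 1.31, SE 0.15, adjusted p = 0.0553). It was called with edgeR (adjusted p = 0.0301), when only the 2 populations were fitted (0.0331), without rod 2 (0.0406) and with scaling to the library total (2.67e-04). Over all alternatives its adjusted p ranged from 3.27e-07 to 0.217.

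Apoe (chr7:19696244-19701310, minus strand) encodes the lipid carrier apolipoprotein E, which microglia make as well as Müller glia. Nrl-/- blue cones had 1176, 1512 and 2602 normalized counts, all above the other 12 libraries. Pan-BC had 665, 343 and 467, ON-BC 356, 264 and 377, OFF-BC 342, 142 and 226, and rods 217, 233 and 388. The rod mean was 6.31-fold below that of blue cones (log2 fold change -2.62, SE 0.33, adjusted p = 8.75e-04), and the pan-BC mean 3.59-fold below it (log2 fold change -1.81, SE 0.33, adjusted p = 0.0387). The difference from pan-BC was not called without pan-BC 2 (adjusted p = 0.169), pan-BC 3 (0.0770), blue cone 2 (0.0545) or blue cone 3 (0.202), nor with DESeq2 (0.110), library total scaling (0.141) or no filter (0.0529). The summed level of 7 microglia markers was also highest in blue cones, at 384, 398 and 810 in blue cones 1 to 3. Pan-BC had 20.2 to 29.4, ON-BC 35.9 to 54.7, OFF-BC 68.2 to 213 and rods 63.1 to 104, and none of the markers was at 0 in all libraries of a population. Outside blue cones, pan-BC had the lowest sums and the highest Apoe mean. OFF-BC 1 had the lowest sum and the highest Apoe of its population. In rods and in blue cones, library 3 had both the highest sum and the highest Apoe of its population. The part of this sum in the result was not tested.

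Gpr37 separated the bipolar populations. ON-BC had 463, 517 and 386 normalized counts and pan-BC 415, 388 and 392, while OFF-BC had 111, 91.3 and 93.8. Rods had 76.6, 76.8 and 151, and Nrl-/- blue cones 55.7, 53.9 and 92.5. Thus all pan-BC and ON-BC libraries were above all OFF-BC and photoreceptor libraries, and OFF-BC, rods and blue cones overlapped. ON-BC exceeded OFF-BC 4.62-fold (log2 fold change 2.19, SE 0.26, adjusted p = 0.00319), and the call held under all settings tried, with adjusted p at most 0.0205. Pan-BC exceeded OFF-BC 4.04-fold (log2 fold change 2.01, SE 0.26, adjusted p = 0.0218), rods 3.92-fold (2.04, adjusted p = 0.00143) and blue cones 5.91-fold (2.59, adjusted p = 3.64e-05). The excess over OFF-BC was not called when pan-BC 1, 2 or 3 or OFF-BC 2 or 3 was left out (adjusted p 0.0621 to 0.0922).

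The glutamate-aspartate transporter GLAST, encoded by Slc1a3 (chr15:8634124-8710807, minus strand), had higher counts in OFF-BC than in ON-BC. OFF-BC had 203, 312 and 115 normalized counts and ON-BC 45.4, 71.5 and 34.9, with no overlap. Pan-BC had 119, 81.7 and 100.3, rods 161, 170.0 and 271, and Nrl-/- blue cones 94.8, 124 and 90.3. The 4.15-fold difference of ON-BC from OFF-BC was not called by limma (log2 fold change -1.98, SE 0.34, 95% interval -2.70 to -1.26, adjusted p = 0.0746). It was called by edgeR (adjusted p = 0.0113), by DESeq2 (0.0356), with the replicate number as a block (0.0138), without ON-BC 2 (0.0281) and without OFF-BC 3 (0.00880), and over all alternatives its adjusted p ranged from 2.86e-04 to 0.453.

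Rlbp1 (chr7:79374865-79392250, minus strand) encodes CRALBP, the retinoid-binding protein of Müller glia and pigment epithelium. Pan-BC had 291, 168 and 207 normalized counts, ON-BC 96.0, 193 and 240.1, and OFF-BC 247, 94.9 and 54.1. Rods had 212, 237 and 356, and Nrl-/- blue cones 177, 327 and 126. All neighbouring populations in the order of means overlapped, and the highest mean was 2.03 times the lowest. The libraries of OFF-BC alone spanned a wider range than the 5 means did.

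Like Rlbp1, the genes Aqp4, Vim, Dkk3 and Car14 were not called in any of the 6 comparisons. The water channel of glial endfeet, encoded by Aqp4 on chromosome 18, had 9.61 to 92.2 normalized counts, lowest in OFF-BC 2 and highest in rod 2. Its 95% interval for ON-BC against OFF-BC was wide, from 0.36 to 2.52 on the log2 scale (estimate 1.44, adjusted p = 1). Vim (chr2:13574311-13582826, plus strand), the intermediate filament vimentin, had 22.1 to 83.0 with every neighbouring population overlapping.

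Dkk3 (chr7:112116019-112159482, minus strand), a secreted glycoprotein of the dickkopf family, was highest in rods, with 376, 424 and 638 normalized counts. Pan-BC had 215 to 280, ON-BC 219 to 221, OFF-BC 131 to 221 and Nrl-/- blue cones 247 to 277. All rod libraries were above all others, and the log2 difference of rods from blue cones was 0.84 (95% interval 0.40 to 1.28, adjusted p = 1). Car14 (chr3:95897768-95905117, minus strand) had 23.2 to 85.0, with the highest mean in rods (70.0 ± 13.2, SD, n = 3) and the lowest in blue cones (29.4 ± 8.49, SD, n = 3), a log2 difference of 1.24 (95% interval 0.35 to 2.13, adjusted p = 1).

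By comparison, 1 of the 10 genes was called between ON-BC and OFF-BC (Gpr37), where 6.55% of all genes tested were called (2.95% higher and 3.6% lower in ON-BC). Gpr37 had all ON-BC libraries above all OFF-BC libraries, as did 19.6% of all genes. Clu, Glul and Slc1a3 had all of them below, as did 22.6%. The median log2 difference over the 10 genes was 0.48 and over all genes -0.02.

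Between pan-BC and ON-BC limma called 0 of 10 (1.06% of all genes, 0.898% higher and 0.164% lower in pan-BC), with 0 at an unadjusted p under 0.05 and 0 by edgeR or DESeq2. Between pan-BC and OFF-BC it called 1 of 10 (3.37%, of which 2.65% higher and 0.727% lower), again Gpr37. These comparisons share the pan-BC libraries. The pan-BC mean lay between those of ON-BC and OFF-BC for 5 of 10 genes, and for 49.4% of all genes tested. It was above both for Apoe, Rlbp1, Vim and Dkk3 (4 of 10, against 25.3%), and below both for Car14.

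Between pan-BC and rods 2 of 10 were called, Clu and Gpr37, both higher in pan-BC, where 43.6% of all genes were called (27.8% higher and 15.8% lower). Between pan-BC and Nrl-/- blue cones 3 of 10 were called, with Glul and Gpr37 higher and Apoe lower (36.3% of all genes, 22.7% higher and 13.7% lower). Between rods and blue cones 2 of 10 were called, Clu and Apoe, both lower in rods (15.9% of all genes, 4.63% higher and 11.3% lower). Median log2 differences over the 10 genes were 0.17, 0.09 and 0.49 in these comparisons, beside 0.21, 0.16 and -0.00 over all genes.

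Libraries that did not overlap were more frequent than calls. Pan-BC was entirely above rods for 3 of 10 genes (46% of all genes) and entirely below for 3 (37.7%). Against Nrl-/- blue cones it was above for 2 (42.7%) and below for 2 (35.7%). Rods were above blue cones for 3 (30% of all genes) and below for 2 (30.9%). Pan-BC was above ON-BC for 2 (15.5%) and below for 0 (11.7%), and above OFF-BC for 2 (19.2%) and below for 0 (21.5%).

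**Figure D1:**
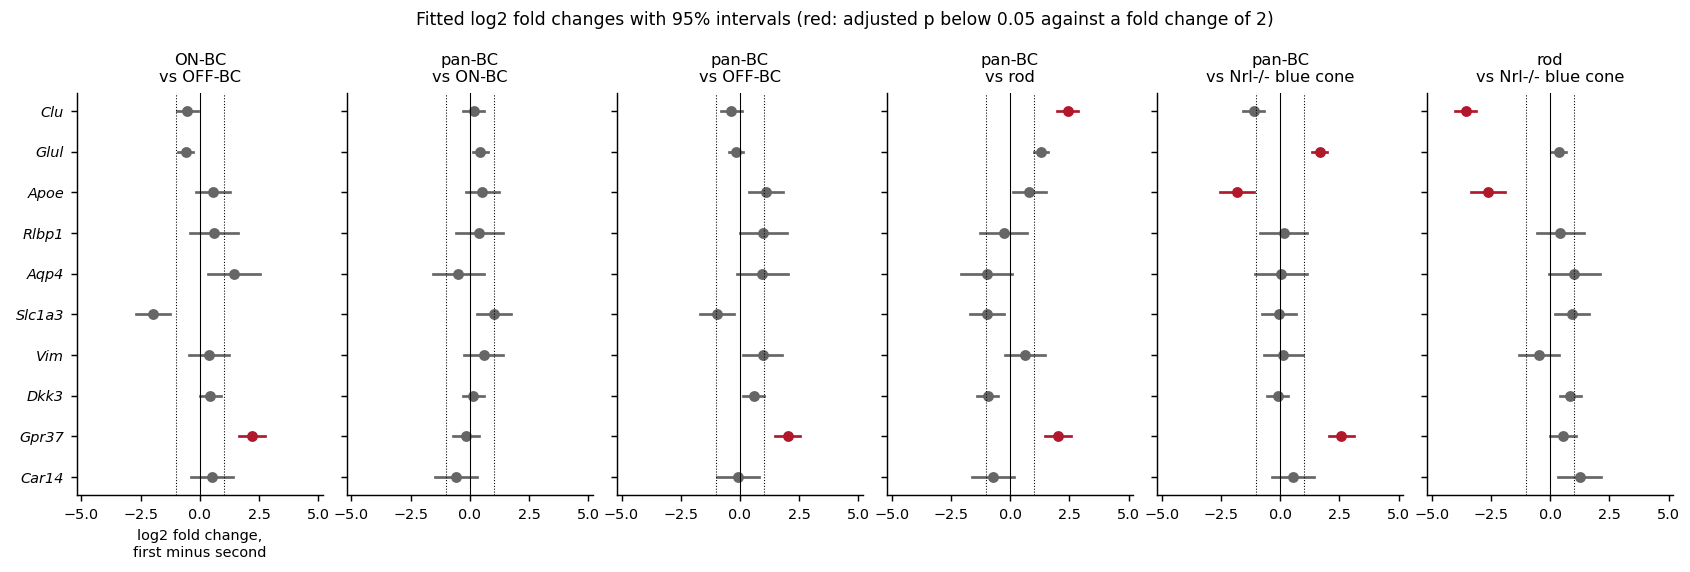
Fitted log2 fold change (first minus second population) of each of the 10 genes in 6 comparisons, with 95% intervals. Dotted lines mark log2 fold changes of -1 and 1, and red points were called at an adjusted p below 0.05. Gpr37 is red in 4 comparisons, Clu and Apoe in 2 each and Glul in 1.

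Median ratios between the genes differed across populations, and ratios also varied between libraries of a population. Relative to Rlbp1, the median ratio of Clu was 3.56 in rods and 66.9 in OFF-BC, an 18.8-fold range over the 5 populations. The ranges were 8.51-fold for Gpr37, 7.0-fold for Glul, 6.50-fold for Apoe and 5.73-fold for Slc1a3. They were narrower for Car14 (2.48-fold), Aqp4 (2.08-fold), Vim (2.02-fold) and Dkk3 (1.56-fold). Within OFF-BC alone, the ratio spanned 42.1 to 131 for Clu, 5.16 to 18.9 for Glul, 0.824 to 3.29 for Slc1a3 and 0.896 to 2.73 for Dkk3. In rods the Clu ratio was 3.53 to 6.02. These ratios rest on Rlbp1 reads of 49 to 431 per library, and their spread was not tested.

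In pan-BC, OFF-BC and rods, 1 library held the highest or the lowest value of most of the genes. Pan-BC 1 was the highest of the pan-BC libraries for 9 of 10 genes, while it was the highest for 30.3% of all genes tested. OFF-BC 1 was the highest of its population for 9 of 10 (35.9% of all genes), and rod 1 the lowest of its population for 9 of 10 (41.9%). No library of ON-BC or Nrl-/- blue cones was the highest or the lowest for more than 5 of 10. For Rlbp1, OFF-BC 1 had 247 normalized counts against 94.9 and 54.1, and for Aqp4 38.0 against 9.61 and 13.2. Over 45 pairs of the genes, the correlation of deviations from population means was positive in 41, with a median r of 0.46 (range -0.37 to 0.76) over 15 libraries that share their size factors. No such value was computed for other genes, so it does not show that these genes moved together more than others. Within OFF-BC, the rod and cone marker sums were highest in OFF-BC 3 and not in OFF-BC 1.

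**Figure D2:**
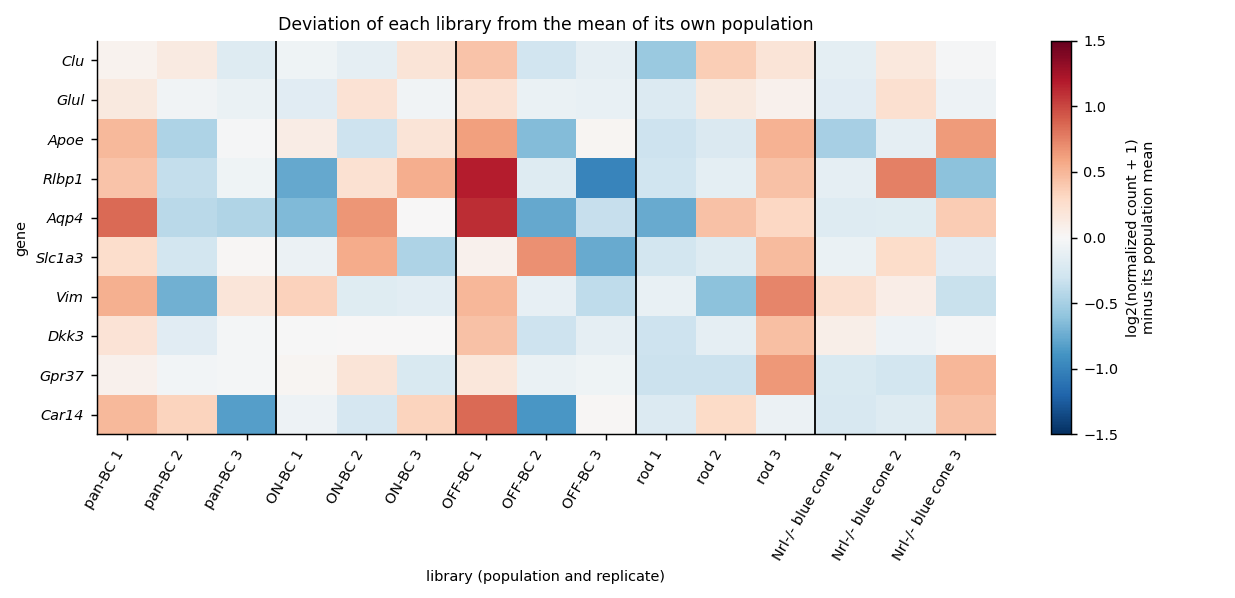
Deviation of log2(normalized count + 1) of each gene (rows) in each library (columns) from the mean of its own population, red above and blue below. The column of OFF-BC 1 is above its population mean for all 10 genes, and so is that of pan-BC 1.

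A further 28 genes that are also used as Müller glia markers were listed, of which 25 passed the filter. Their calls were 2 higher and 1 lower in ON-BC than in OFF-BC, beside 2.95% and 3.6% of all genes. Ednrb, an endothelin receptor (log2 fold change 5.27), and Tgfb2, a secreted growth factor (3.79), were higher, and Sox9, a glial transcription factor, was lower (-5.82, with mean normalized counts of 25.1 in ON-BC and 1400.4 in OFF-BC). Pan-BC exceeded ON-BC in 1 of 25, Sox9 (3.73), where 0.898% of all genes were higher. It exceeded OFF-BC in 3, Ednrb (4.98), Sox8 (4.03) and Tgfb2 (3.32), where 2.65% were. Against rods 8 were higher in pan-BC, led by Tgfb2 (6.88), Ednrb (5.95), Sox9 (3.97) and Sox8 (3.72), and 1 was lower, the polarity gene Crb1 (-6.32), beside 27.8% and 15.8% of all genes. Against Nrl-/- blue cones 5 were higher, led by Tgfb2 (5.78) and Sox8 (3.82), and 2 were lower, Crb1 (-5.90) and Notch1 (-2.37), beside 22.7% and 13.7%. Rods were below blue cones in 2, Ednrb (-5.77) and Car2 (-1.64), where 11.3% of all genes were lower. Medians over the list were -0.04, 0.39, 0.27, 0.54, 0.73 and -0.18 for ON-BC against OFF-BC, pan-BC against ON-BC, OFF-BC, rods and blue cones, and rods against blue cones. Over all genes they were -0.02, 0.02, -0.02, 0.21, 0.16 and -0.00 in the same order. Fgf15 was at 0 in all libraries and Nes at 0 in those of ON-BC. Within populations, OFF-BC 1 was the highest for 13 of the 25 (35.9% of all genes), pan-BC 1 for 11 (30.3%) and rod 3 for 19 (31.8%).

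Across all genes tested, those whose log2 levels followed a gene most closely over the 15 libraries were Apbb1 (r = 0.99) and Sgce (0.99) for Clu, Gm128 (0.97) and Rpl8 (0.97) for Glul, Fkbp4 (0.95) and Lrit1 (0.95) for Apoe, and Ppifos (0.82) and Slc15a2 (0.77) for Rlbp1. Libraries of a population are not independent points here, and populations that differ in many genes give high values.

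Among markers of other cell types, the sum over 4 astrocyte markers was 10.1 to 58.5 normalized counts, with Pax2 at 0 in all libraries of pan-BC, ON-BC, rods and blue cones. The sum over 6 endothelial markers was 178 to 234 in rods and 23.2 to 91.1 elsewhere, with Cldn5 at 0 in ON-BC and Cdh5 at 0 in OFF-BC. For 7 amacrine markers the sum was larger, from 327 in an ON-BC library to 2448 in a rod library. Sums were 21.6 to 200 for 7 ganglion cell markers and 7.76 to 119 for 4 horizontal cell markers. They were 12.3 to 113 for 4 pericyte markers and 6.15 to 57.4 for 5 pigment epithelium markers.

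Promoter accessibility was available for 7 of the 10 genes, in 8 regions that overlapped the window from 1000 bases upstream to 100 downstream of a start. Rlbp1, Aqp4 and Slc1a3 had no such region. Peaks called by the authors in each of 14 libraries lay in the Clu and Glul promoters in 14 of 14, in that of Gpr37 in 11, Vim in 9, Car14 in 8, Dkk3 in 6 and Apoe in 3. They lay in those of Rlbp1, Aqp4 and Slc1a3 in 0 of 14. A library had a peak in 3 to 7 of the 10 promoters (median 4.5).

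The Gpr37 promoter region (chr6:25689900-25690100) had 110.4 and 197 normalized counts in pan-BC. ON-BC had 175 and 199 and OFF-BC 94.3 and 64.2. Rods had 0 and 11.5, Nrl-/- blue cones 20.7 and 26.7, and green cones 30.7 and 19.7. All bipolar libraries were above all photoreceptor libraries. Pan-BC exceeded rods (log2 fold change 5.39, SE 0.71, adjusted p = 2.62e-05), and the difference from blue cones was just outside the threshold (2.60, SE 0.71, adjusted p = 0.0501). That difference was called with edgeR (adjusted p = 2.45e-04), with a pseudocount of 5 (0.00200) and with the replicate number as a block (0.0390), and over all alternatives its adjusted p ranged from 2.45e-04 to 0.264. Here the replicate number joins libraries made in separate studies from mice of different ages, so that block matches nothing in the design. ON-BC was above OFF-BC in both libraries, and this was not called (1.25, 95% interval -0.23 to 2.73, adjusted p = 1).

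Between pan-BC and rods 4 of 8 promoter regions were called, where 51.6% of all regions were. The Vim region 80 bases upstream of the start had 12 and 12 in pan-BC and 0 and 0 in rods. That was 36 reads against 0, and pan-BC was at least 11-fold higher, taking 3 reads over the group as the floor (adjusted p = 0.00101). This Vim call was lost with a pseudocount of 5 (adjusted p = 0.0698). The other Vim region, at -682 bases, was not called (adjusted p = 0.159). The Apoe region had 12.8 and 12.5 in pan-BC and 1.56 and 1.36 in rods (log2 fold change 2.48, adjusted p = 0.0335), a call that was lost when any library of either group was left out (0.0755 to 0.0927). It was also lost with TMM scaling (0.0525) and a pseudocount of 5 (0.239). An Apoe region outside the window, 385 bases from a start, went the other way. It had 8.00 and 6.84 in pan-BC and 37.4 and 43.4 in rods (-2.30, adjusted p = 0.0793, not called). The authors' peaks lay in the Apoe promoter in rod 2 and in neither pan-BC library. Car14 was lower in pan-BC, with 10.4 and 2.28 against 28.0 and 47.4 in rods (-2.62, SE 0.63, adjusted p = 0.0202). That call was lost without pan-BC 2 (0.257) or rod 2 (0.134).

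No promoter region was called by limma in the other comparisons. Between ON-BC and OFF-BC (7.39% of all regions called) 0 of 8 passed an unadjusted p under 0.05 and edgeR called 0. Between pan-BC and blue cones (35.9%) 1 passed the unadjusted test and edgeR called 4, and between rods and blue cones (10% of all regions) 3 passed it and edgeR called 3. The shares given are of limma calls, and those by unadjusted p or by edgeR were not counted. The Clu region had 318 and 283 in pan-BC and 520.2 and 569.9 in rods, so that accessibility was higher in rods while RNA was lower. The log2 difference was -0.86 (95% interval -1.21 to -0.51, adjusted p = 0.964). The Glul region had 221 and 338 in pan-BC and 609 and 685 in blue cones (-1.24, 95% interval -1.61 to -0.87, adjusted p = 0.213), again opposite to its RNA. This difference was called with edgeR (adjusted p = 8.92e-04), with TMM scaling (0.0151) and without pan-BC 2 (0.0175), and over all alternatives its adjusted p ranged from 1.41e-05 to 0.915. It also overlaps Gm38440 and Mir8114.

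**Figure D3:**
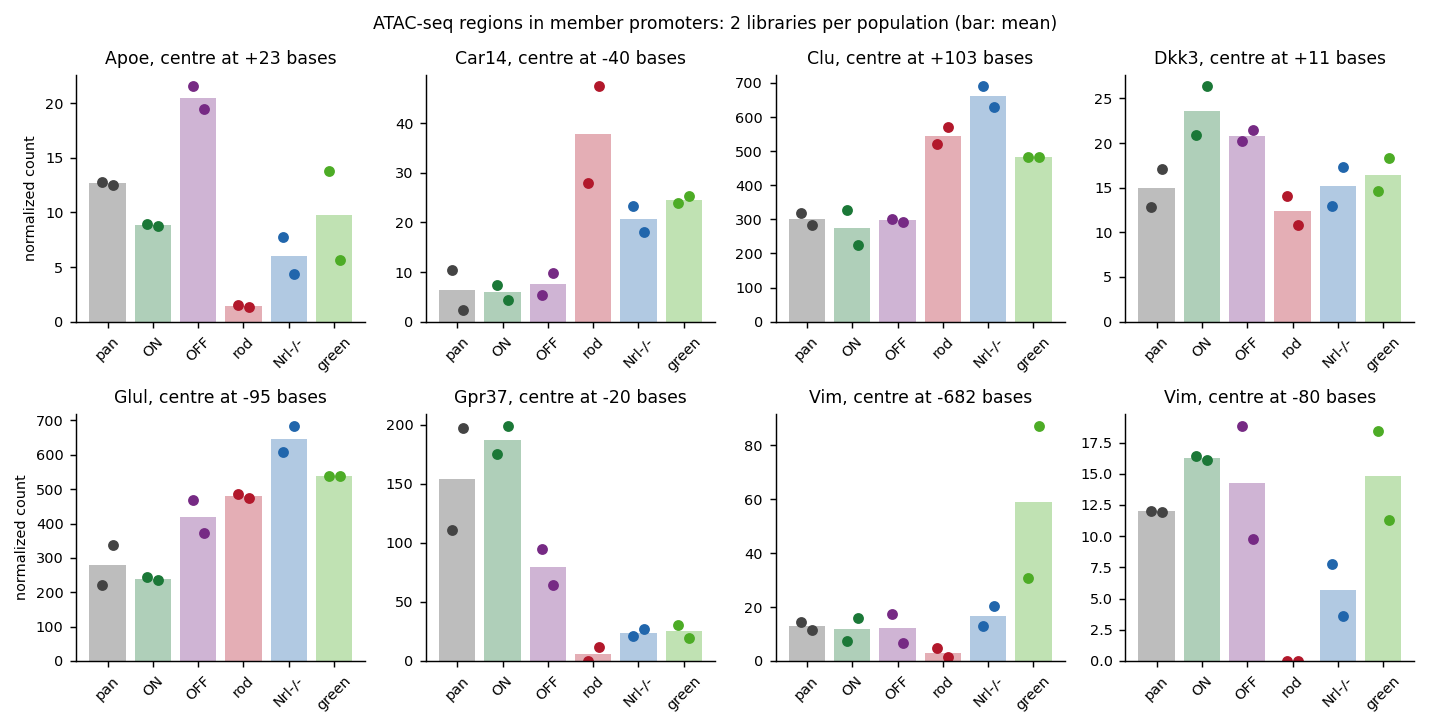
Normalized ATAC-seq count in the 8 promoter regions (a separate linear scale each, from 0) in pan-BC, ON-BC, OFF-BC, rods, Nrl-/- blue cones and green cones. Points are libraries and bars the mean of 2. The Gpr37 bars are highest in pan-BC and ON-BC, and those of Clu are higher in photoreceptors than in bipolar cells.

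Away from promoters, 76 regions had one of the 10 genes as the nearest, and 70 of them passed the filter. Between ON-BC and OFF-BC 6 were called, all higher in ON-BC (4.58% of all regions were higher and 2.8% lower). By nearest gene, 3 were assigned to Gpr37, 2 to Aqp4 and 1 to Glul. Of the Aqp4 regions, that at chr18:15491151-15491351 lies in the gene Chst9. The region of Gpr37 at chr6:25504405-25504605, whose sequence is printed above, had 176 and 183 in ON-BC and 8.08 and 4.87 in OFF-BC (log2 fold change 4.63, adjusted p = 0.00193), and no setting tried removed the call. That at chr6:25351218-25351418 had 137 and 239 against 13.5 and 5.84 (4.19, adjusted p = 0.00399; 0.0575 without ON-BC 2). In rods these regions had 0 to 1.56 and in pan-BC 116 to 145. Another, at chr6:25537064-25537264, had 25.4 and 77.6 against 0 and 1.95 (4.73, adjusted p = 0.00639), and was not called without ON-BC 2 (0.0752) or OFF-BC 1 (0.0792).

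Between pan-BC and rods 40 of the 70 were higher and 2 lower in pan-BC, against 40.3% and 11.2% of all regions. The higher ones included 11 of 12 for Gpr37, 8 of 10 for Aqp4, 9 of 14 for Slc1a3, 5 of 5 for Vim and 4 of 5 for Glul. Rlbp1 had 1 of 5, Dkk3 2 of 10, Clu 0 of 6, Apoe 0 of 2 and Car14 0 of 1. Most of the higher regions assigned to Aqp4 lie in the gene Chst9. The 2 lower regions belonged to Clu and are named after their values were seen. One overlaps an exon of Clu at chr14:65981411-65981611 and had 3.20 and 0.570 in pan-BC and 144 and 120 in rods (-5.69, adjusted p = 1.2e-06). The other, at chr14:65988278-65988478, lies in the neighbouring gene Gulo, with 11.2 and 7.41 against 134 and 145.0 (-3.79, adjusted p = 3.49e-06). The median log2 difference over the 70 regions was 2.56 and over all regions 1.16. Between pan-BC and blue cones 31 were higher and 4 lower (28.8% and 7.13% of all regions). Between rods and blue cones 5 were lower and 0 higher by limma (8.56% and 1.46%). Being nearest does not show that a region acts on a gene.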

How the data were processed

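Sorted mouse retinal neurons were profiled by RNA-seq (15 libraries) and ATAC-seq (12 libraries in the table of regions, 14 with peaks). Per the paper's methods and the labels, the authors aligned RNA-seq reads to mm10 with STAR and counted them with HTSeq, and aligned ATAC-seq reads with Bowtie2, removed duplicates with Picard and ran MACS2 on each library for peaks. Both deposited tables give a signal per library, namely counts that the authors divided by 1 size factor per library. All 230384 RNA-seq values above 0 gave whole reads when multiplied by that factor, within 0.01 of a read. The deposited peak files give the fold enrichment, a ratio to the local background, and the −log10 of p and q values, as computed by MACS2 for the authors, with a score.

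Genes and regions were filtered with edgeR's filterByExpr on recovered reads (14024 of 24062 genes, 108448 of 110715 regions). The tables proved to hold normalized values, so limma 3.58.1 in R 4.3.3 was the main test, by treat with a trended prior on log2(normalized count + 1), against a log2 fold change of 1. All libraries of an assay entered 1 fit, with Benjamini-Hochberg adjustment over all features. The pseudocount understates changes of low genes. Alternatives used edgeR 4.0.16 and DESeq2 1.42.0 (RNA-seq only) on recovered reads, other scalings, filters and pseudocounts, and each library left out. Scripts were tested on simulated data.

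The 10 genes, the marker lists and the tests were chosen with earlier results of these data known. All 10 genes are named. Of the 28 other glial genes at most 4 per direction and comparison are named, those with the largest changes among called genes. Where the labels do not state separate animals, p-values cover only the spread between these libraries. Whether same-numbered libraries share animals is not stated.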

Additional observations from a re-analysis of the deposited data

How the results depend on the processing

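Gpr37 kept its call between ON-BC and OFF-BC under every alternative, and Clu kept its calls against rods. The limits lie in 2 or 3 libraries per population, in low read counts and in the confounding of class with study. Only OFF-BC were sorted a second time, and RNA-seq pan-BC differed in genotype from ON-BC and OFF-BC. Among bipolar populations, cell type thus cannot be told apart from sorting or genotype. Shares of all genes and regions called were counted only for the main test. Counts under other settings thus show how calls shift, and not whether these genes stand out. Against a log2 fold change of 0, RNA-seq calls among the 10 genes became 4 for ON-BC against OFF-BC, 2 for pan-BC against OFF-BC, and 6 for pan-BC against rods and for rods against blue cones. edgeR and DESeq2 each called 2 between ON-BC and OFF-BC. Leaving out 1 library gave 1 to 2 calls there, 0 to 1 for pan-BC against OFF-BC, 2 to 3 for pan-BC against rods and against blue cones, and 2 for rods against blue cones. For the 8 promoter regions, a test against 0 called 1 for ON-BC against OFF-BC, 7 for pan-BC against rods, 4 for pan-BC against blue cones and 3 for rods against blue cones. edgeR called 4 and 3 in the last 2 of these. A pseudocount of 5 left 2 for pan-BC against rods and 1 against blue cones, where TMM gave 2. Leaving out 1 library gave 2 to 3 for pan-BC against rods, and 0 to 1 for pan-BC against blue cones and for rods against blue cones. The cause of these shifts was not tested. Counting only regions with their centre in the window, an alternative chosen after seeing the data, left out the Clu region, and the numbers called by limma stayed at 4 for pan-BC against rods and 0 in the other comparisons.

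Same-numbered libraries were not treated as pairs, since shared animals are not stated. For ON-BC against OFF-BC their deviations correlated at -0.08, 0.22 and -0.06 in RNA-seq and 1.7e-04 in ATAC-seq. ON-BC 3 and OFF-BC 1, which differ in number, correlated at 0.21 in RNA-seq. These values thus do not decide whether same-numbered libraries were pairs. With the replicate number as a block, 2 genes were called between ON-BC and OFF-BC (Slc1a3, adjusted p = 0.0138, beside Gpr37) and 1 promoter region between pan-BC and blue cones (Gpr37, adjusted p = 0.0390). Pan-BC and blue cones came from separate studies, so the number links nothing between them.

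Scaling to library totals moved the median of all genes by 0.35 for pan-BC against rods and 0.28 against blue cones, and TMM moved that of all regions by -0.08 to -0.27. Reversals of sign concerned differences that were never called. With library totals, the log2 difference became 0.076 for Rlbp1 against rods, and 0.24 for Slc1a3 and 0.18 for Dkk3 against blue cones. With TMM that of Aqp4 against blue cones became -0.012. With 1 library left out, pan-BC minus blue cones was -0.15 to 0.54 for Rlbp1, -0.39 to 0.26 for Aqp4, -0.17 to 0.10 for Slc1a3 and -0.13 to 0.50 for Vim, and pan-BC minus OFF-BC was -0.52 to 0.34 for Car14. Among regions, ON-BC minus OFF-BC became -0.050 for Dkk3 with TMM and -0.047 with edgeR. For the Vim region at -682 bases it became -0.20 with TMM, -0.0079 with a pseudocount of 5 and -0.21 with edgeR, and for that at -80 bases -0.011 with edgeR. With 1 library left out it was -0.62 to 0.62 and -0.20 to 0.69 for these Vim regions, -0.67 to 0.081 for Car14, -0.40 to 0.14 for the Clu promoter and -1.64 to 0.029 for the Clu region at 13028 bases.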
